A study of Homo sapiens with 6 samples.

Results

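The 47 genes described here encode the machinery of DNA replication, from the proteins that mark an origin to those that copy, join and repackage the new strands. They were chosen by name and looked up by exact gene symbol among the 26822 symbols of the deposited expression table, and all 47 were found, each on 1 row that carries no other symbol. MCF10A, an established non-tumorigenic line of human breast epithelial cells, was transfected with 30 nM of a non-targeting siRNA (siNT, 3 samples) or of siRNAs against PAX9 (siPAX9, 3 samples) for 72 hours. Both groups carry the same parental genotype and the same transfection, so the siRNA is the only labelled difference between them. Expression was measured by single-end sequencing of poly(A)-selected RNA and is given as FPKM, the number of fragments scaled to transcript length and library size, which makes levels comparable between genes of different length. The table holds 1 pooled FPKM per group and gene and no value per sample, so no spread between replicates, no error and no test could be computed from these values. The authors' own test of the groups, which the table also lists, was not used here. The table gives no depth for a sample or a group. Every value below is therefore a group value, and the difference is the log2 of the siPAX9 FPKM over the siNT FPKM.

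DNA replication begins when the origin recognition complex (ORC), CDC6 and CDT1 load the ring-shaped MCM2-7 helicase onto DNA, a step called licensing that geminin restrains by binding CDT1. The kinase CDC7 with its activator DBF4, together with CDC45, GINS and MCM10, then turns the loaded ring into a running helicase. Polymerase alpha-primase lays down primers, polymerases epsilon and delta extend them with the sliding clamp PCNA and its loader RFC, and the remaining factors mature Okazaki fragments, coat single-stranded DNA, guard the fork and rebuild chromatin. Many of these genes are transcribed most strongly around the start of S phase under E2F transcription factors, so their mRNA is widely used as a sign of proliferating cells.

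The replication genes were lower in siPAX9 almost without exception. Of the 47, 46 had a lower FPKM in siPAX9, and the exception was POLE2, the second subunit of polymerase epsilon, at 1.501 in siNT and 1.606 in siPAX9. The median log2 ratio of the 47 genes was -0.95, a 1.94-fold lower level, with the 25th percentile at -1.29 and the 75th at -0.72. Over the 13622 genes that reached 1 FPKM in at least the higher group, the median was -0.07 and 54.8% were lower in siPAX9. The largest difference was that of CDT1, at 5.52-fold lower, and the next was that of PRIM1, the catalytic subunit of primase, at 4.16-fold lower. RNA from bulk cultures does not separate fewer cells in S phase from less of each mRNA per cell, and these cannot be told apart here.

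Called by size, 19 of the 47 genes (40.4%) were at least 2-fold lower in siPAX9, against 7.22% of the 13622 genes, and 0 were at least 2-fold higher, against 7.75%. With 1 added to each FPKM, which damps ratios of low values, 11 of the 47 and 4.89% of all genes were at least 2-fold lower. Among the 11386 genes whose mean FPKM lay within the range of the replication genes, from 1.09 to 45.5, 6.69% were at least 2-fold lower. A further 19 genes were between 1.5-fold and 2-fold lower, so that 38 (80.9%) reached 1.5-fold against 17.0% of all genes. The 2-fold line ran through a dense stretch of values, with CLSPN at 2.01-fold and ORC6 at 2.03-fold just inside and UHRF1 and MCM7, both at 1.99-fold, just outside. Set against the spread of all genes, 41 of the 47 lay below the 25th percentile of -0.41 and 46 lay below the all-gene median. CDT1, PRIM1 and RFC3 were the 3 genes at 3-fold or more.

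**Figure D1:**
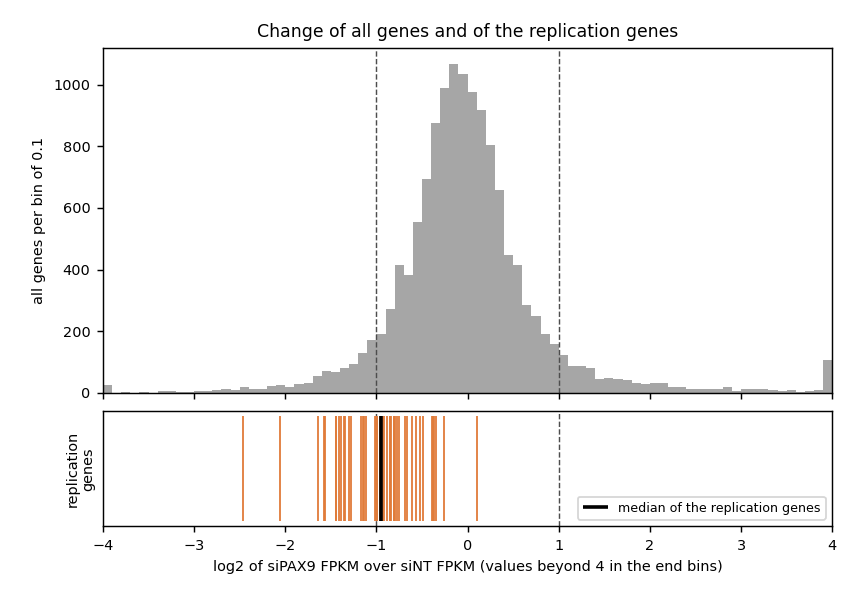
Distribution of log2 ratios of siPAX9 over siNT FPKM for the 13492 of the 13622 genes that were above 0 in both groups (grey bars, bins of 0.1, values beyond 4 in the end bins, upper panel) and for the 47 replication genes (orange lines, lower panel), with dashed lines at 2-fold and a black line at the median of the 47 genes. The orange lines gather between the centre of the grey distribution and its left flank, around -0.95, and a single line lies above 0.

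Promoter sequences are shown for 5 genes because they span the range of the differences, from the 2 lowest ratios to the only gene above 0, and because they differ in the words they hold. RefSeq promoters on GRCh38.p14, each running from 250 bases before to 50 bases after a start, matched 41 of the 47 genes in 53 windows, and 6 genes had no entry. Windows of different starts overlap in 4 genes, CDC45, CDC7, MCM7 and UHRF1. E2F words were searched as TTTCGCGC, TTTGGCGC, TTTCCCGC and TTTGCCGC on both strands, so the reverse complements count too and overlapping words were counted separately. Each sequence is written 5′ to 3′ on the strand of its gene, in lower case with E2F words in capitals. CDT1 is at chr16:88803539-88803838 on the plus strand, MCM2 at chr3:127598161-127598460 on the plus strand, MCM6 at chr2:135876394-135876693 on the minus strand, POLE2 at chr14:49688165-49688464 on the minus strand and PRIM1 at chr12:56752274-56752573 on the minus strand.
CDT1: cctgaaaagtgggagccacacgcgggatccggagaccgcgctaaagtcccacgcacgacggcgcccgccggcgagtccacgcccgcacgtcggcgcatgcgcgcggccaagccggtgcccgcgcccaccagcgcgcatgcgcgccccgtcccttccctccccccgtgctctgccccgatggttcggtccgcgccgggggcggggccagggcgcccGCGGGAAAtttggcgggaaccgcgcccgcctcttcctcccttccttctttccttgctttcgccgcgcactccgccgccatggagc
MCM2: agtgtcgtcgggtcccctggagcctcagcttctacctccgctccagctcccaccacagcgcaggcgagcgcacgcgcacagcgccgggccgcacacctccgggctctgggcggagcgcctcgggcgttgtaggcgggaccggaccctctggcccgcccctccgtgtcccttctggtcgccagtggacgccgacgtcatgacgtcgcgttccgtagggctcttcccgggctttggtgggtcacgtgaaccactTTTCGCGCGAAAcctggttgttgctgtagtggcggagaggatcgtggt
MCM6: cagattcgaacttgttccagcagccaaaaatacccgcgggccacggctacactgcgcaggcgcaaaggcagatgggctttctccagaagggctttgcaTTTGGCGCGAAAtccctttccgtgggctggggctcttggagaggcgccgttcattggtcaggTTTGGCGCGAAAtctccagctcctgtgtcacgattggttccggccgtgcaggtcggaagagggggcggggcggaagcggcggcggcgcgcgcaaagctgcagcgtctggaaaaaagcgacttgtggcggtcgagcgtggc
POLE2: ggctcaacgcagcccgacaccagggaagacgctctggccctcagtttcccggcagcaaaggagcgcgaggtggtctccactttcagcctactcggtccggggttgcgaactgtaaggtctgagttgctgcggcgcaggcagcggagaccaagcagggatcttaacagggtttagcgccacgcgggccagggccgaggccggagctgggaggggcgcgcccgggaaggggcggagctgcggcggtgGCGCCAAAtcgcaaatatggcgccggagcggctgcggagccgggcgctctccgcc
PRIM1: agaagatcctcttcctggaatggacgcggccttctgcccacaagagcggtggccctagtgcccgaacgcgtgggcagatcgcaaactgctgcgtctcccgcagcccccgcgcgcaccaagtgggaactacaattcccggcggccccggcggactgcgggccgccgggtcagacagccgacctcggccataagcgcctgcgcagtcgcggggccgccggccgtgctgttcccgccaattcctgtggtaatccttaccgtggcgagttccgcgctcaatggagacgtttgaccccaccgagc
CDT1 held 1 E2F word, beginning 35 bases before the start. The subunits MCM2 and MCM6 of the helicase held 2 and 4 words, which overlap in pairs into runs of capitals that read the same, or nearly so, on both strands. POLE2, the gene that was not lower, also held 1 word, 5 bases before its start, and PRIM1 held none although its level was the second farthest down.

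Across the matched genes, 21 of 41 (51.2%) held an E2F word in at least 1 window, against 3.99% of the 27305 genes with a RefSeq promoter and 6.77% of the 9286 protein-coding ones with an FPKM of at least 1 here. Counted by window, 22 of 53 (41.5%) held a word, against 3.32% of 35116 windows. Of the 30 words found, with overlapping words counted separately, 23 lay from 100 bases before to 50 bases after the start. That stretch is a large part of each window, and its share was not counted for all promoters. All 4 matched MCM2-7 genes held one, as did 4 of 7 origin-firing genes and 3 of 5 licensing factors, whereas 2 of 6 clamp and clamp loader genes did. The size of the difference did not separate by the word. The median log2 ratio was -0.99 in the 21 genes with a word, ranging from -2.46 to 0.10, and -0.96 in the 20 without, ranging from -2.06 to -0.26. At least 2-fold lower were 9 of the 21 and 8 of the 20, against 7.22% of all genes.

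Other short words were counted in the same windows. CCAAT, the word bound by the factor NF-Y, was in 30 of 53 windows (56.6%) against 34.6% of all windows, and 39 of its 54 distinct sites began between 150 and 30 bases before a start, with sites shared by the overlapping windows of a gene counted once. GGGCGG, the GC box bound by SP1, was in 41 windows (77.4%) against 45.0%, in promoters whose median GC content was 65.7% against 58.7% overall. Among protein-coding genes with an FPKM of at least 1 the shares were 34.9% for CCAAT and 65.9% for GGGCGG, at a median GC content of 64.7%. Counted by gene, GGGCGG was held by 32 of the 41 matched genes (78.0%) and by 76.8% of these protein-coding genes, and CCAAT by 25 (61.0%) and 43.5%. TTTGAA, the cell cycle homology word of genes that peak in G2 and mitosis, was in 1 window, that of DBF4 (1.89%), against 15.2% of all windows and 10.6% of those of protein-coding genes with at least 1 FPKM. These matches describe letters in a fixed window and do not show that a factor was bound.

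**Figure D2:**
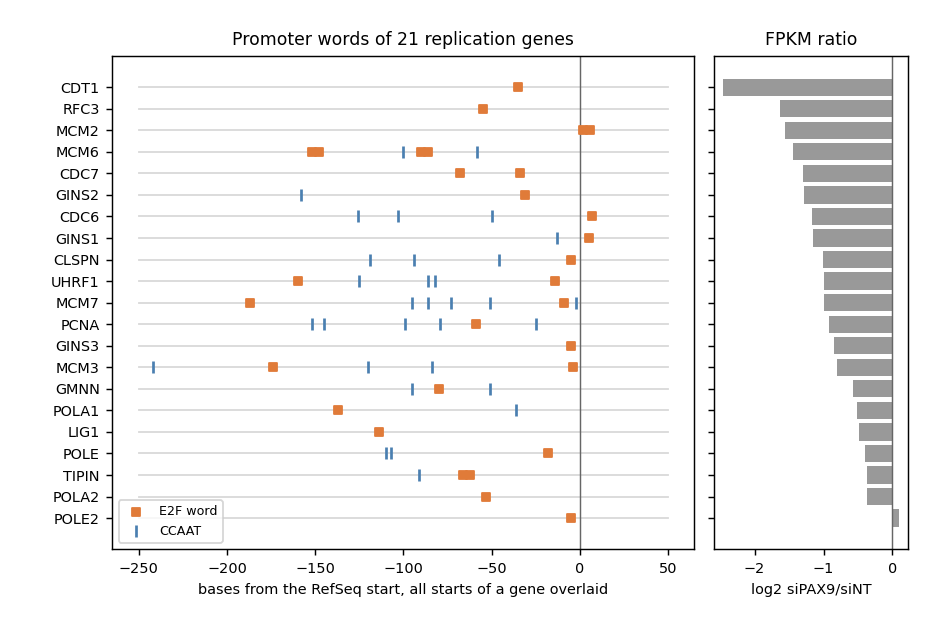
Position of E2F words (orange squares) and CCAAT (blue bars) in RefSeq promoters of the 21 replication genes that held an E2F word, in bases from the start, beside the log2 ratio of siPAX9 over siNT FPKM of each gene (grey bars). Words near the start are seen in genes at the top, such as CDT1 at -2.46, as well as at the bottom, where POLE2 stands at 0.10.

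Among the licensing factors, CDT1 was far lower in siPAX9 while its inhibitor geminin was less than 1.5-fold lower. CDT1, which delivers MCM2-7 to origins, measured 10.8 FPKM in siNT and 1.95 in siPAX9, leaving 18.1% of its siNT level. Only 1.15% of the 13622 genes had a log2 ratio as low or lower. Its row spans chr16:88870185-88875666 (hg19). GMNN, which encodes geminin, stood at 22.8 in siNT and 15.4 in siPAX9, 1.48-fold lower. The level of CDT1 was therefore 0.473 of that of GMNN in siNT and 0.127 in siPAX9. CDC6, the ATPase that works with CDT1, had 6.65 and 2.95 (2.25-fold lower), so it was below CDT1 in siNT and above it in siPAX9, at ratios of 0.617 and 1.51. With ORC6, 3 of the 5 licensing factors were at least 2-fold lower, against 7.22% of all genes. With 1 added to each FPKM, 1 of the 5, CDT1, was at least 2-fold lower, against 4.89% of all genes.

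The ORC subunits that were chosen had lower log2 ratios than the other 4. ORC6, the smallest subunit, had 8.47 in siNT and 4.18 in siPAX9 (2.03-fold lower), and ORC1, the ATPase subunit whose level rises and falls in the cell cycle, had 3.42 and 2.13 (1.605-fold lower). ORC2, ORC3, ORC4 and ORC5, the core that stays together through the cycle, were each less than 1.5-fold lower. ORC2 had 17.7 and 13.9, ORC3 had 5.87 and 4.52, ORC4 had 5.55 and 5.45, and ORC5 had 10.2 and 7.35. The log2 ratios of these 4 subunits ran from -0.47 to -0.03, and those of ORC1 and ORC6 were -0.68 and -1.02.

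All 6 subunits of the MCM2-7 ring, which form a single hexamer with 1 copy of each, were lower, and they did not move by the same factor. MCM2 measured 16.7 FPKM in siNT and 5.67 in siPAX9, MCM5 had 10.95 and 4.03, and MCM6 had 10.5 and 3.85. These 3 subunits were 2.72 to 2.95-fold lower. MCM3 had 27.4 and 15.7, MCM4 had 19.4 and 12.8, and MCM7 had 32.6 and 16.4, so that these 3 were 1.52 to 1.99-fold lower. MCM7 was the most abundant of the 6 in both groups and MCM6 the least, and the highest level was 3.11 times the lowest in siNT and 4.25 times in siPAX9. MCM4 made up 16.5% of the summed FPKM of the ring in siNT and 21.9% in siPAX9, and MCM2 went from 14.2% to 9.72%. The sum itself was 117.6 in siNT and 58.3 in siPAX9. MCM6 and MCM2 hold the overlapping E2F words shown above, and MCM3 and MCM7, with smaller differences, hold words as well. MCM4 and MCM5 had no RefSeq promoter entry. Outside the ring, TIPIN also holds an overlapping pair of words, and its level was 1.30-fold lower. MCM8 and MCM9, related proteins of recombination that are not in the ring, had log2 ratios of -0.13 and -0.41.

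The origin-firing genes lay close together, with log2 ratios from -1.39 to -0.78 and a median of -1.22. Of the 8, 6 were at least 2-fold lower, against 7.22% of all genes. With 1 added to each FPKM, 2 of the 8, CDC7 and GINS2, were at least 2-fold lower, against 4.89% of all genes. CDC45, which joins MCM2-7 and GINS in the active helicase, had 3.20 in siNT and 1.22 in siPAX9 (2.62-fold lower). All 4 subunits of GINS were lower. GINS1 had 5.22 and 2.35, GINS2 had 9.08 and 3.73, GINS3 had 5.14 and 2.87, and GINS4 had 2.27 and 0.888. GINS2 was the highest and GINS4 the lowest of the 4 in both groups, and GINS3 was the one short of 2-fold, at 1.79-fold lower. MCM10, which is needed to start the assembled helicase, had 2.09 and 0.951 (2.20-fold lower). The kinase CDC7 had 6.59 and 2.67 (2.47-fold lower) and its activator DBF4 6.40 and 3.74 (1.71-fold lower), so DBF4 stood at 0.973 of CDC7 in siNT and at 1.40 in siPAX9.

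**Figure D3:**
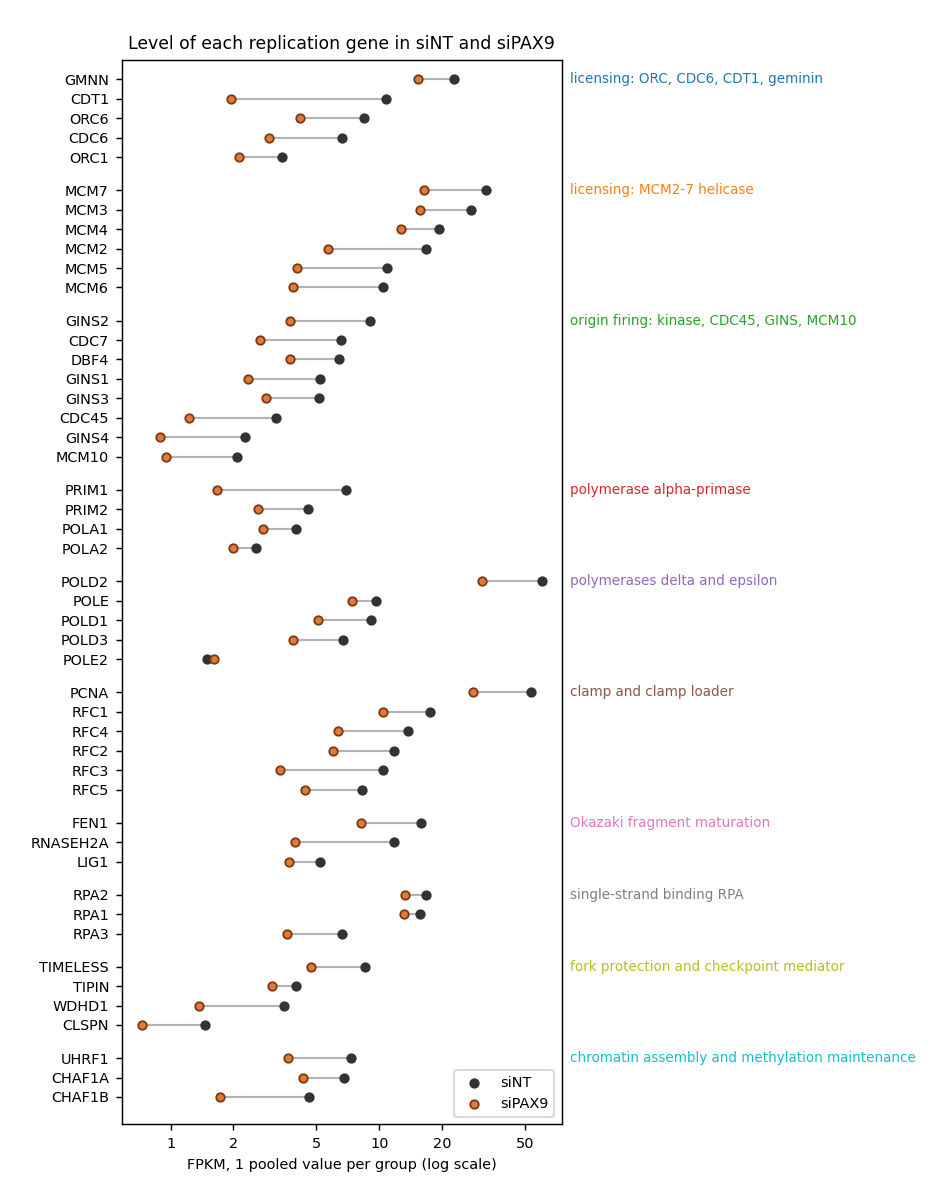
FPKM of each of the 47 replication genes in siNT (dark points) and siPAX9 (orange points) on a log axis, ordered by role and then by siNT level, with 1 pooled value per group and no error. Every orange point lies to the left of its dark point except that of POLE2, and the longest gaps are those of CDT1 (10.8 to 1.95) and PRIM1 (6.93 to 1.67).

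Within polymerase alpha-primase, the primer-making complex, the 4 subunits differed widely. PRIM1 had 6.93 in siNT and 1.67 in siPAX9 (log2 ratio -2.06), at chr12:57123362-57146146 (hg19). Its partner PRIM2, the regulatory primase subunit, had 4.57 and 2.64 (1.73-fold lower), so PRIM1 was 1.52 times PRIM2 in siNT and 0.633 times in siPAX9. The polymerase subunits POLA1 and POLA2 were closer between the groups. POLA1, the catalytic subunit, had 3.97 and 2.77 (1.43-fold lower), and POLA2 had 2.56 and 1.98 (1.29-fold lower). Annotated exons of PRIM1 share positions with NACA and HSD17B6, and those of PRIM2 with the pseudogene PRIM2BP, so reads of these genes could have been shared out differently.

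Of the 5 genes of polymerases delta and epsilon, 0 were at least 2-fold lower, against 7.22% of all genes. A set of 5 is too small to set apart from that share. POLD2, an accessory subunit of polymerase delta, was the most abundant of all 47 genes in both groups, at 60.02 in siNT and 31.0 in siPAX9 (1.94-fold lower). POLD1, the catalytic subunit, had 9.17 and 5.10 (1.798-fold lower), and POLD3, which binds PCNA, had 6.73 and 3.86 (1.75-fold lower). The 3 differences lay within a narrow range, from 1.75 to 1.94-fold. POLD4, the smallest delta subunit and not among the 47 genes, had 6.80 and 10.4, a log2 ratio of 0.61. POLE, the catalytic subunit of the leading-strand polymerase epsilon, had 9.69 and 7.38 (1.31-fold lower), beside 1.501 and 1.606 for POLE2. POLE2 thus stood at 0.155 of POLE in siNT and 0.218 in siPAX9. The small epsilon subunits POLE3 and POLE4 had log2 ratios of -0.20 and -0.68.

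PCNA, the sliding clamp that holds polymerases on DNA, was the second most abundant gene, at 53.2 in siNT and 28.0 in siPAX9 (1.90-fold lower). Its loader RFC has 5 subunits and all were lower. RFC1, the large subunit, had 17.5 and 10.4 (1.68-fold lower), RFC2 had 11.8 and 6.04 (1.95-fold lower), and RFC5 had 8.26 and 4.39 (1.88-fold lower). RFC4 had 13.8 and 6.36 (2.16-fold lower) and RFC3 had 10.4 and 3.34 (3.11-fold lower). RFC3 therefore stood apart within its complex, at 0.596 of RFC1 in siNT and 0.322 in siPAX9. The alternative large subunits that take the place of RFC1 differed among themselves. CHTF18, of the loader used in sister chromatid cohesion, had 6.19 and 2.70, ATAD5, which unloads PCNA, had 2.78 and 1.34, and RAD17, which loads the checkpoint clamp, had 8.96 and 10.4. DSCC1, a partner of CHTF18, had 6.39 and 1.67, 3.83-fold lower, while its other partner CHTF8 had 39.4 and 29.1.

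Of the 3 genes that finish Okazaki fragments, RNASEH2A, the catalytic subunit of the ribonuclease that removes RNA from DNA, had 11.8 in siNT and 3.96 in siPAX9 (2.98-fold lower). The other two RNase H2 subunits, which are not among the 47 genes, lay on opposite sides of 0. RNASEH2B had 10.9 and 5.09, and RNASEH2C had 7.96 and 10.6, log2 ratios of -1.09 and 0.41. FEN1, the flap endonuclease, had 15.8 and 8.14 (1.94-fold lower), and LIG1, the ligase that seals the fragments, had 5.19 and 3.69 (1.41-fold lower).

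RPA, the trimer that coats single-stranded DNA at forks and in repair, was the set with the smallest differences, with a median log2 ratio of -0.35. RPA1, the large subunit, had 15.8 in siNT and 13.1 in siPAX9 (1.201-fold lower), and 34.5% of all genes had a ratio as low or lower. RPA2 had 16.8 and 13.2 (1.27-fold lower), and RPA3, the smallest subunit, had 6.65 and 3.601 (1.85-fold lower). RPA1 and RPA2 held ranks 11 and 8 among the 47 genes by level in siNT and ranks 7 and 6 in siPAX9.

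The fork-protection genes spanned a wide range, and 2 of 4 were at least 2-fold lower, against 7.22% of all genes. With 1 added to each FPKM, 0 of the 4 were at least 2-fold lower, against 4.89% of all genes. WDHD1, also called AND-1, which tethers polymerase alpha to the helicase, had 3.48 in siNT and 1.37 in siPAX9 (2.54-fold lower), and CLSPN, the checkpoint mediator claspin, had 1.46 and 0.726 (2.01-fold lower). TIMELESS had 8.55 and 4.73 (1.81-fold lower) and its partner TIPIN 3.97 and 3.06 (1.30-fold lower). The obligate partners TIMELESS and TIPIN therefore differed in size, with TIPIN at 0.465 of TIMELESS in siNT and 0.647 in siPAX9. CHEK1, the kinase that claspin helps to activate, had 12.3 and 4.73 (2.60-fold lower), and ATR, the kinase upstream of it, had 7.34 and 7.24.

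Among the genes that rebuild chromatin behind the fork, CHAF1B, the middle subunit of the histone chaperone CAF-1, had 4.59 in siNT and 1.73 in siPAX9 (2.65-fold lower). CHAF1A, the large subunit, had 6.81 and 4.30 (1.58-fold lower), and RBBP4, the third subunit, which also serves other complexes, had 21.03 and 17.3. UHRF1, which brings the maintenance methyltransferase DNMT1 to newly copied DNA, had 7.31 and 3.67 (1.99-fold lower), and DNMT1 itself had 12.7 and 7.49 (1.70-fold lower). ASF1B, the proliferation-linked form of the histone chaperone ASF1, had 7.02 and 2.49, and ASF1A had 8.83 and 8.37, log2 ratios of -1.49 and -0.08. SSRP1 and SUPT16H, the 2 subunits of the chaperone FACT, were close to each other at 1.82-fold and 1.799-fold lower.

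**Figure D4:**
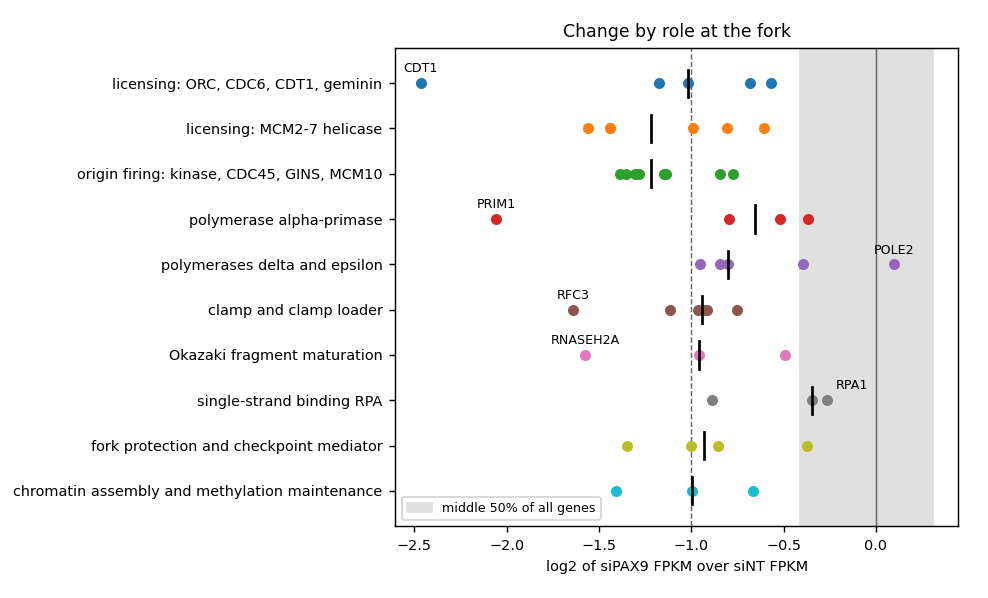
Log2 ratio of siPAX9 over siNT FPKM for the 47 replication genes grouped by role (coloured points), with the median of each role (black bars), the middle 50% of all genes from -0.41 to 0.31 (grey band) and a dashed line at 2-fold lower. Origin-firing genes lie tightly around -1.22, and CDT1, PRIM1, RFC3 and RNASEH2A stand to the left within their roles. RPA1, RPA2, POLA2, POLE, POLE2 and TIPIN lie inside the grey band.

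Levels spanned a wide range in both groups, and the order was largely kept. In siNT the 47 genes ran from 1.46 (CLSPN) to 60.02 (POLD2) with a median of 8.26, and in siPAX9 from 0.726 (CLSPN) to 31.0 (POLD2) with a median of 3.74. An FPKM above 10 was reached by 18 genes in siNT and by 9 in siPAX9, and 3 genes, MCM10, GINS4 and CLSPN, were under 1 in siPAX9. Across the 47 genes, which share both libraries' pooled values, Spearman's rho was 0.90 between the levels in the groups and -0.03 between the siNT level and the log2 ratio. The log2 ratio contains the siNT level, so the second value cannot show that level and difference are independent. The farthest shifts in rank were those of CDT1, from rank 16 to rank 39, and PRIM1, from rank 26 to rank 41. With no replicate values, the order of neighbouring levels could not be told from their spread. The genes lie on 20 chromosomes, with at most 5 on any of them.

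Other replication factors outside the 47 genes had a smaller median difference. Of 49 such factors, 42 had a log2 ratio below 0, against 54.8% of all genes, and their median log2 ratio was -0.44. At least 2-fold lower were 15 (30.6%), against 7.22% of all genes, and 0 were at least 2-fold higher, against 7.75%. With 1 added to each FPKM, 5 of the 49 and 4.89% of all genes were at least 2-fold lower. Those at least 2-fold lower included the origin-firing factors MTBP (-1.06), RECQL4 (-1.16) and DBF4B (-1.48), an alternative activator of CDC7. DSCC1 (-1.94), CHTF18 (-1.20) and ATAD5 (-1.06) handle the clamp, and RNASEH2B (-1.09) is described above. The fork-protection factors were TONSL (-1.24) and MMS22L (-1.30), which act as a pair, CHEK1 (-1.38), the ubiquitin ligase TRAIP (-1.71), LRR1 (-1.03), which helps to unload the helicase, and the RTEL1 locus (-3.35). The histone chaperones were ASF1B (-1.49) and NASP (-1.03). The RTEL1 row, at 140.1 in siNT and 13.7 in siPAX9, also covers TNFRSF6B, so it cannot be assigned to the helicase RTEL1 alone. At the other end, TICRR, which helps to recruit CDC45, had 2.96 and 5.22, a log2 ratio of 0.82.

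Genes of mitochondrial DNA replication and of translesion and repair synthesis were set beside these genes. For 9 genes of mitochondrial DNA replication, all had a lower level in siPAX9, as had 54.8% of all genes, the median log2 ratio was -0.52, from -0.65 (TFB2M) to -0.13 (POLRMT), and 0 reached 2-fold, against 7.22% of all genes. For 11 translesion and repair polymerases, the median was -0.07, the same as that of all genes to 2 decimals, 6 (54.5%) were below 0, near the 54.8% of all genes, and POLQ (-1.28), the polymerase of end joining by short homology, and MAD2L2 (-1.03), a partner of the polymerase zeta subunit REV3L, were at least 2-fold lower. In lists of 9 and 11 genes, 0 and 2 such genes are too few to set apart from the 7.22% of all genes, and with 1 added to each FPKM 0 of the 11 and 4.89% of all genes were at least 2-fold lower. POLH, which copies past ultraviolet damage, was the highest at 0.44. The median of 12 genes used as references in expression work was 0.08.

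**Figure D5:**
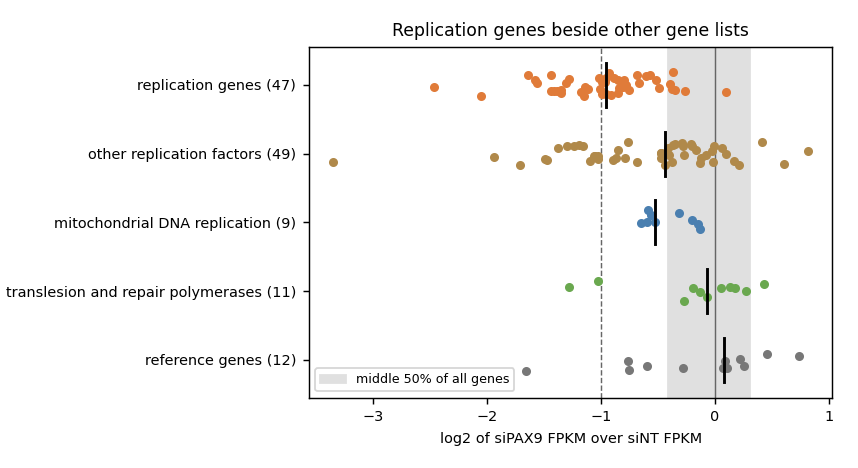
Log2 ratio of siPAX9 over siNT FPKM for the 47 replication genes, 49 other replication factors, 9 genes of mitochondrial DNA replication, 11 translesion and repair polymerases and 12 reference genes (points, spread vertically for clarity; black bars, medians), with the middle 50% of all genes in grey. The medians are -0.95, -0.44, -0.52, -0.07 and 0.08 from top to bottom, and the point farthest left is the RTEL1 locus.

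Some rows overlap rows of other genes. For 7 of the 47 genes another named row with an FPKM of at least 1 overlaps, and whether strand was used in counting is not given in the sources used here. The row that overlaps RFC4 holds EIF4A2 at 301.4 in siNT and 251.9 in siPAX9, and the row of PCNA-AS1, antisense to PCNA, had 20.8 and 9.89. RPA3 overlaps UMAD1 (5.32 and 6.94), GINS4 overlaps GPAT4 (11.8 and 14.2), DBF4 overlaps SLC25A40 (6.996 and 5.92) and MCM7 overlaps TAF6 (14.4 and 10.3), AP4M1, CNPY4 and the microRNA gene MIR25, which was listed at 0 in siNT and at 104.4 in siPAX9. TIPIN overlaps the small RNA gene SCARNA14 (3.92 in siNT and listed at 0 in siPAX9). In the GENCODE annotation, 12 of the 47 rows overlap another protein-coding gene. The values of RFC4, PCNA, RPA3, GINS4, DBF4, MCM7 and TIPIN, and of other genes with such overlaps, are uncertain to the extent that reads were shared between rows.

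The targeted gene PAX9 measured 2.80 FPKM in siNT and 0.325 in siPAX9. All 12 basal breast epithelial markers had an FPKM above 1 in both groups, with KRT5 at 1558 and 1807 and TP63 at 35.4 and 25.3, and 2 of them, KRT6A (367.8 and 959.2) and CDH1 (45.3 and 124.4), were at least 2-fold higher in siPAX9. Of 8 luminal and hormone receptor markers, ESR1, PGR, KRT19 and PRLR were below 1 in both groups. KRT18 had 211.7 and 118.9, KRT8 had 51.7 and 58.7, GATA3 had 6.19 and 7.56, and FOXA1 had 1.10 and 2.86. Of 6 fibroblast markers, COL1A2 and COL3A1 were at or near 0 in both groups, PDGFRB and LUM were below 1, and DCN (5.85 and 37.9) and COL1A1 (0.454 and 4.13) were higher in siPAX9, for a sum of 6.40 and 42.2. Of 5 immune markers, CD3E was listed at 0 in both groups and PTPRC and LYZ were below 1, while CD14 had 14.4 and 56.5, CD68 had 3.38 and 3.77, and the sum was 17.9 and 60.4. Of 5 endothelial markers, VWF, CDH5 and CLDN5 were near 0, PECAM1 had 2.58 and 0.495 and KDR 0.798 and 1.94, and the sum was 3.41 and 2.46. The part of these markers in the replication genes' values was not tested.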

How the data were processed

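Poly(A)+ RNA of 3 siNT and 3 siPAX9 samples was sequenced by the authors, aligned to hg19 with Bowtie2 and quantified with Cufflinks within Partek. The deposited FPKM is 1 value per group and locus, pooled by the authors over the 3 samples. How the libraries were scaled against each other is not given in the sources used here. The authors' fold change, p-value and q-value columns were not used. Of 41656 loci, 27678 carried a symbol. Rows were split at commas, and the row with the highest mean was kept for each symbol. A gene was called when its FPKM differed at least 2-fold and reached 1 in at least the higher group. No test or error could be computed from pooled values, and the table gives no depth. The scripts were tested on simulated data. The 47 genes, the other lists and the promoter words were chosen with earlier results of these data known. Named genes are the 47 members, those of the other lists past 2-fold or at either end, PAX9 and the comparison lists; the core ORC subunits, MCM8 and MCM9, polymerase, clamp loader, RNase H2, kinase and chromatin partners of described complexes were named after their values were seen. Exon overlap was read from GENCODE release 44 placed on hg19, and promoter sequences from RefSeq on GRCh38.p14. Python 3.11.15, numpy 2.4.6, pandas 2.3.3 and matplotlib 3.10.9 were used. An item of the marker lists is not reported here.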

Additional observations from a re-analysis of the deposited data

How the results depend on the processing

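The direction of all 47 replication genes held under every alternative scaling tried, with 46 below 0 and POLE2 above 0, and 0 values reversed. With 1 added to each FPKM, the median of the 47 genes was -0.78 and 11 were at least 2-fold lower (CDC45, CDC6, CLSPN, GINS1, GINS4, MCM10, ORC6 and WDHD1 no longer reached it), against 4.89% of all genes lower and 5.00% higher. The other replication factors then had 5 at least 2-fold lower and the translesion polymerases 0. Centring on the median gene left 17 of the 47 (without CLSPN and ORC6), 6.26% and 8.64% of all genes lower and higher, and 1 translesion polymerase, and upper-quartile scaling left 17, 6.18%, 8.66% and 1. At 1.5-fold, 38 of the 47, 3 mitochondrial and 4 reference genes were lower, with 17.0% of all genes lower and 14.8% higher. At 4-fold, 2 of the 47, 1 other replication factor, 0 translesion polymerases and 0 reference genes were lower, with 1.75% of all genes lower and 3.20% higher. Without a minimum FPKM, 8.15% and 13.7% of all genes were lower and higher. With a minimum of 5, these were 6.48% and 5.33%, 13 of the 35 replication genes left were at least 2-fold lower, the mitochondrial median was -0.42 and 1 translesion polymerase was past 2-fold. Within the FPKM range of the 47 genes, an alternative chosen after seeing the data, 6.69% and 7.10% were lower and higher. The cause of these shifts was not tested. No paired analysis was possible because the table holds only pooled group values, which also allow no sample to be left out.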

Other observations

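The genes often used as references did not hold one level. HPRT1, of purine salvage, measured 33.2 FPKM in siNT and 10.6 in siPAX9, 3.15-fold lower, which is a larger difference than that of 45 of the 47 replication genes. GAPDH (2196 and 1299) and PPIA (267.2 and 157.3) were 1.69-fold and 1.70-fold lower, ACTB and TBP had log2 ratios of 0.09 and 0.07, and TFRC, the transferrin receptor, was highest at 0.74. The 12 genes ran from -1.65 to 0.74, and HPRT1 alone lay below the median of the replication genes, -0.95. The next lowest, PPIA and GAPDH, each had a log2 ratio of -0.76. These are pooled values with no replicate error.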
